A study of Mus musculus with 6 samples.

Results

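The genes described here encode matricellular proteins, which are secreted into the extracellular matrix and steer how cells attach and signal, together with fibronectin and the proteoglycans versican and decorin. They were found by the gene symbol that the platform annotation gives each probe set. Of 9 genes named by that rule, 8 had a named probe set among 24704 named genes: Postn, Tnc, Thbs1, Thbs2, Sparc, Fn1, Vcan and Dcn. Spp1, which encodes osteopontin, was not analysed here.

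Whole-lung RNA was measured on arrays with biotin-labelled cRNA, in 3 Nfat5(EC)-/- mice and 3 Nfat5fl/fl control mice. NFAT5 is a transcription factor that responds to osmotic and mechanical stress. In the Nfat5(EC)-/- group, called the knockout below, Nfat5 was deleted in endothelial cells by 1 mg of tamoxifen a day, injected intraperitoneally on 5 days at 10 to 12 weeks of age, through a Cre driver not given in the sources used here. Controls, Nfat5fl/fl mice, received the solvent miglyol, so genotype and tamoxifen cannot be told apart. After 2 to 3 weeks of recovery all animals, male and female, were kept in hypoxia for 7 days, and the lungs were flushed with cold Ringer solution. The design names 4 mice per group, and lungs with contaminating tissue or an inadequate transcriptional response to hypoxia had been left out by the authors.

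Matricellular proteins bind cell surface receptors, other matrix proteins and growth factors, and most are scarce in resting adult tissue and abundant where tissue is repaired or remodelled. Fibronectin is assembled by cells into fibrils through integrin receptors, and versican and decorin are proteoglycans, that is, core proteins with long sugar chains. Fibroblasts, smooth muscle cells, macrophages, endothelial cells and platelets can all be sources of these transcripts in a lung. Since whole lung was used, fewer cells of a type and less RNA per cell cannot be told apart.

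Nfat5 had log2 levels of 4.46, 4.48 and 3.89 in knockout replicates 1, 3 and 4, against 6.65, 6.58 and 6.30 in the control replicates of the same numbers. The arrays had common quantiles, with a lower quartile of 2.02 on the log2 scale. Across genes, which are not independent replicates, the arrays correlated at 0.916 to 0.939 within the knockout group and at 0.968 to 0.970 within the control group. Differences are given below as log2 fold changes, knockout minus control, with limma's moderated standard error (SE). A gene passed when its Benjamini-Hochberg adjusted p over all 24704 genes was under 0.05. The p-values set the difference between the groups against the spread between arrays within a group. Nothing in the labels says whether the arrays came from separate litters or days. A litter or day shared by a group could not be told apart from the genotype.

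Postn and Dcn were lower in knockout lungs and none of the 8 genes was higher. Of all 24704 genes 13% were called lower and 12.5% higher, so 2 of 8 called lower (25%) is to be read against a wide background of changed genes. The other 6 members did not pass, with log2 fold changes between −0.57 and 0.21. The median over the 8 members was −0.17, where the median of all genes was 0.04. The knockout and control arrays did not overlap at 3 members, Postn, Dcn and Sparc, all lower in the knockout (37.5%), against 20% of all genes, or 41.9% of all genes when both directions are counted.

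**Figure D1:**
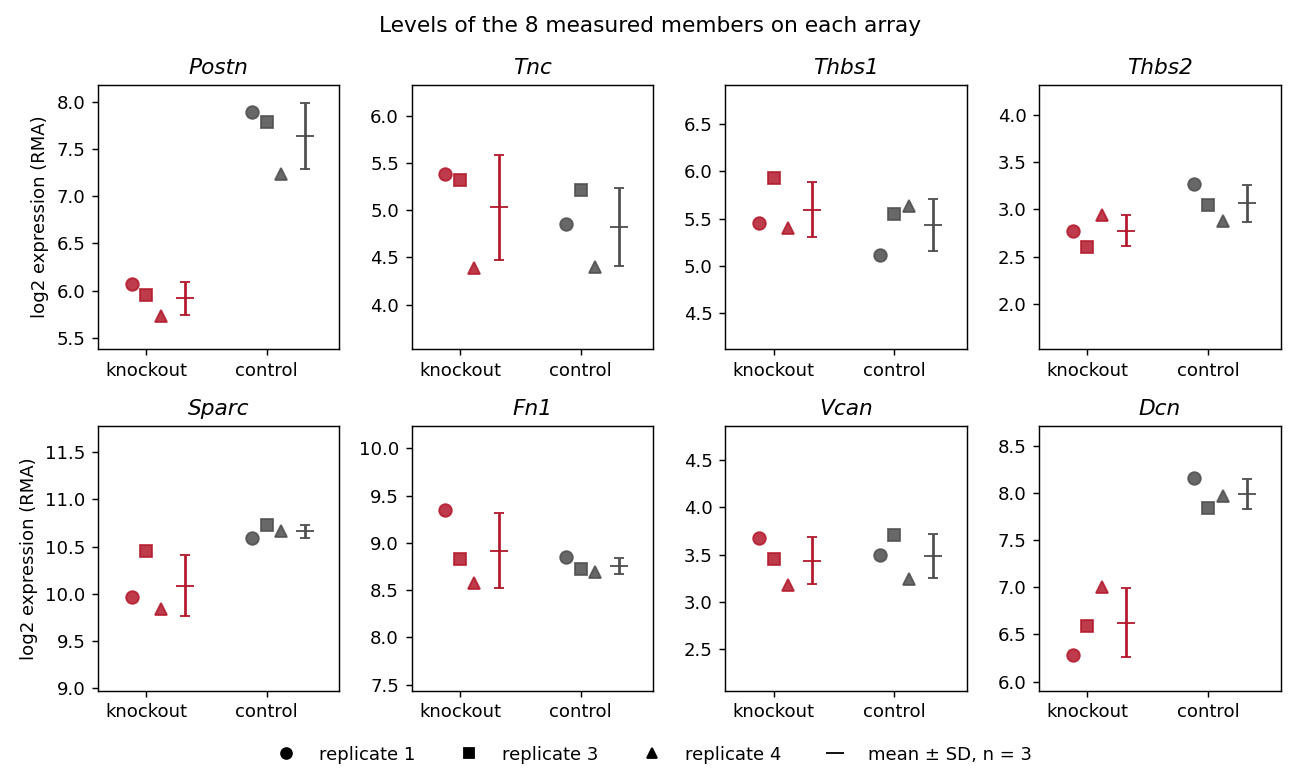
Log2 expression of the 8 measured genes on each array, with knockout arrays on the left and control arrays on the right of each panel, and the mean and SD of 3 arrays beside the points. Every vertical axis spans the same number of log2 units. Postn and Dcn show the widest gap between the groups, Sparc a narrow one, and the other 5 genes overlap.

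Sequence from before the annotated starts is shown for the 2 members whose window held the core letters of NFAT binding sites, TGGAAA, a hexamer that the NFAT5 recognition sequence contains. RefSeq promoters of GRCm38.p6 were matched by symbol for 5 of the 8 members, Postn, Tnc, Thbs2, Sparc and Vcan, in 7 windows, since Postn and Tnc have a pair of starts each. Only the 250 bases upstream of each start were read. Capitals mark TGGAAA and the TATA box letters TATAAA, on either strand (TTTCCA and TTTATA on the opposite strand). The Postn stretch lies at chr3:54360857-54361106 on the plus strand, upstream of its second listed start, and the Thbs2 stretch at chr17:14694263-14694512 on the minus strand.
Postn: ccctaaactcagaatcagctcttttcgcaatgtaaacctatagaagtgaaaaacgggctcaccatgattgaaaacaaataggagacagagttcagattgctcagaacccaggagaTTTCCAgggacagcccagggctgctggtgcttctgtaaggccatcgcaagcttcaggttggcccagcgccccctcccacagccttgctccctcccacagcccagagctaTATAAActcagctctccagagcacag
Thbs2: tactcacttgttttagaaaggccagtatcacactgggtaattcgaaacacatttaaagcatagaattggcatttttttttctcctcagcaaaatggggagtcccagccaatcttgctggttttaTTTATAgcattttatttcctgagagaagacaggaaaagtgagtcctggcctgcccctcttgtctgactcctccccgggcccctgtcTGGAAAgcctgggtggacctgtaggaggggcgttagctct
The TGGAAA match began 135 bases before the Postn start, on the opposite strand, and 40 bases before the Thbs2 start, on the same strand as the gene. The TATAAA match of Postn began 26 bases before the start. TGGAAA was found in 2 of the 7 windows, and in 18.6% of 32851 RefSeq windows of the same length, while TATAAA was found in 4 of the 7 and in 12.4% of all windows. The pair of Tnc windows overlaps by 171 bases and holds the same TATAAA match, so these 4 windows hold 3 different sites. The motifs did not overlap. Postn was among the members called lower and Thbs2 was not, as the values below show, and the letters are a description of these windows.

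Periostin, the product of Postn, is a secreted protein with FAS1 domains that binds integrins and collagen and is made mainly by fibroblasts in remodelling tissue. Its log2 level was 6.07, 5.96 and 5.73 in knockout replicates 1, 3 and 4, against 7.89, 7.79 and 7.24 in control replicates 1, 3 and 4. The lowest control array stood 1.17 log2 units above the highest knockout array. The knockout mean of 5.92 ± 0.18, against a control mean of 7.64 ± 0.35 (SD, n = 3 each), was 3.29-fold lower, with a 95% interval of 2.30-fold to 4.71-fold. This is −1.72 ± 0.23 on the log2 scale (limma, SE, adjusted p = 0.0024), and 1.57% of all genes were as low or lower. Postn passed in each of 17 refits, at −1.92 to −1.58 with adjusted p of 0.0016 to 0.022.

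Tenascin-C, the product of Tnc, is a large matrix glycoprotein of six-armed form that appears where tissue is remodelled, the pulmonary artery wall included. Tnc had log2 levels of 5.38, 5.32 and 4.38 in the knockout, against 4.86, 5.22 and 4.40 in the control. On replicate 4 of both groups Tnc was low, and the groups overlapped. The means were 5.03 ± 0.56 in knockout and 4.82 ± 0.41 in control lungs (SD, n = 3 each), the widest spread of any member in either group. The log2 fold change of 0.21 ± 0.32 did not pass (limma, adjusted p = 0.69), with a 95% interval of the fold from 0.701 to 1.90. Without knockout replicate 4 it was 0.53 (adjusted p = 0.19), and without control replicate 4 it was −0.0058 (adjusted p = 0.99).

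Thrombospondins 1 and 2, the products of Thbs1 and Thbs2, bind CD36 and CD47 and restrain the growth of blood vessels, and thrombospondin 1 also activates latent TGF-beta. Thbs1 had log2 levels of 5.46, 5.93 and 5.40 in the knockout, against 5.12, 5.55 and 5.64 in the control. The highest value came from a knockout array and the lowest from a control array, but the groups overlapped. Its log2 fold change of 0.16 ± 0.23 did not pass (limma, adjusted p = 0.67), and the fold lay between 0.778 and 1.61 at 95%. Thbs2 had log2 levels of 2.78, 2.61 and 2.94 in the knockout, against 3.27, 3.05 and 2.87 in the control. Only knockout replicate 4 reached into the control range. The log2 fold change of −0.29 ± 0.20 did not pass either (limma, adjusted p = 0.33), with a fold between 0.599 and 1.12. Its probe set lay above the arrays' lower quartile of 2.02 on all 6 arrays, and the file used here holds no detection calls.

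SPARC, also called osteonectin, is a collagen-binding glycoprotein that helps collagen fibrils assemble and is made by fibroblasts and endothelial cells. Sparc had log2 levels of 9.97, 10.46 and 9.84 in the knockout, against 10.60, 10.73 and 10.66 in the control. All knockout arrays lay below all control arrays, by 0.14 log2 units at the closest. The control arrays spread little (SD 0.067) and the knockout arrays more (SD 0.33). The log2 fold change of −0.57 ± 0.22 missed the threshold (limma, unadjusted p = 0.026, adjusted p = 0.082), although the 95% interval of the fold, 0.479 to 0.941, does not include 1. Without knockout replicate 3, the highest knockout array, Sparc passed at −0.76 (adjusted p = 0.029). In the other 16 refits it did not pass, at −0.61 to −0.45.

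Fibronectin, encoded by Fn1, links integrins on cells to collagen and other matrix proteins. Fn1 had log2 levels of 9.35, 8.82 and 8.57 in the knockout, against 8.85, 8.72 and 8.69 in the control. Knockout replicate 1 was the highest array and knockout replicate 4 the lowest, so the control values lay inside the knockout range. Its difference of 0.16 ± 0.23 on the log2 scale did not pass (limma, adjusted p = 0.67), with a fold between 0.776 and 1.61. Without knockout replicate 1 it was −0.06 (adjusted p = 0.88).

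Versican, encoded by Vcan, is a large proteoglycan that binds hyaluronan and loosens the matrix. Vcan had log2 levels of 3.68, 3.45 and 3.18 in the knockout, against 3.50, 3.71 and 3.25 in the control. The groups covered nearly the same range. Its log2 fold change of −0.05 ± 0.22 was the smallest of any member (limma, adjusted p = 0.91), and the fold lay between 0.690 and 1.36. The sign turned without knockout replicate 4 (0.08), without control replicate 3 (0.07) and with the trend in gene length removed (0.33).

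Decorin, encoded by Dcn, is a small leucine-rich proteoglycan that coats collagen fibrils and binds TGF-beta, and fibroblasts are its main source. Dcn had log2 levels of 6.28, 6.59 and 7.01 in the knockout, against 8.15, 7.84 and 7.96 in the control. The groups were 0.83 log2 units apart at their closest. The knockout mean of 6.63 ± 0.36, against a control mean of 7.98 ± 0.16 (SD, n = 3 each), was 2.57-fold lower, with a 95% interval of 1.79-fold to 3.68-fold. This is −1.36 ± 0.23 on the log2 scale (limma, SE, adjusted p = 0.0045), and 4.44% of all genes were as low or lower. Dcn passed in each of 17 refits, at −1.55 to −1.17 with adjusted p of 0.0027 to 0.033.

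The order of the knockout arrays was not shared by the members that were lower. Postn was lowest on knockout replicate 4, while Dcn was highest there and lowest on knockout replicate 1. Over all 8 members, 6 were lowest among knockout arrays on replicate 4, and 5 were lowest among control arrays on control replicate 4. The SD was larger in the knockout than in the control for 6 of 8 members, with ranges of 0.17 to 0.56 in the knockout and 0.067 to 0.41 in the control. Across all genes, too, the knockout arrays correlated less well with each other (0.916 to 0.939) than the control arrays did (0.968 to 0.970). The share of all genes with a larger SD in the knockout was not counted. Among pairs of members, Fn1 and Vcan had the smallest root mean square difference over the 6 arrays, after each gene was centred on its mean. It was 0.19 log2 units, against 0.41 for Postn and Dcn. This distance is not scaled to a gene's spread. Genes with similar fold changes therefore tend to lie near each other by it, those with little change included.

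**Figure D2:**
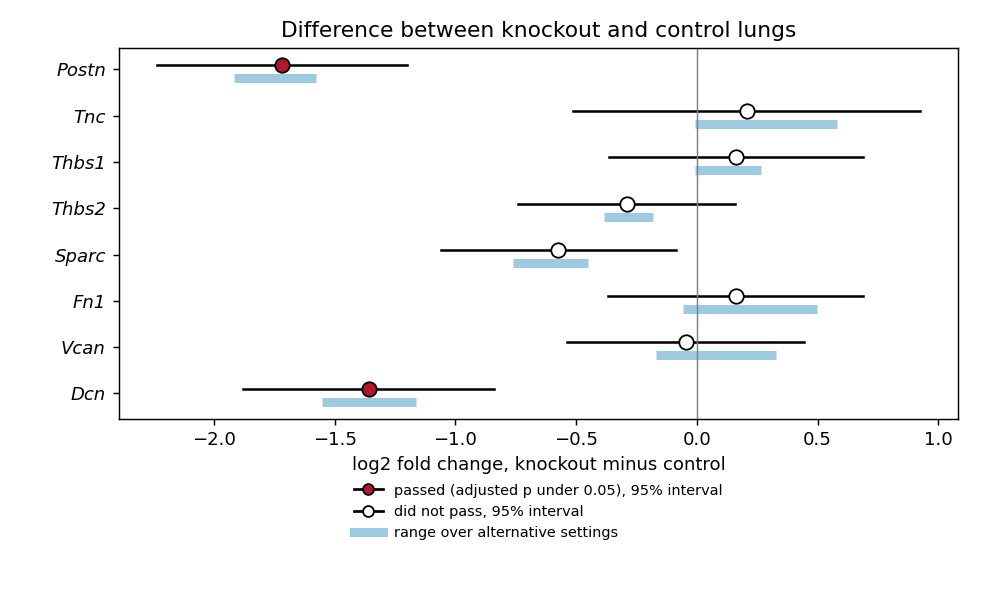
Log2 fold change, knockout minus control, of the 8 genes, with the 95% interval as a black line and the range over alternative settings as a blue bar. Filled points passed the threshold. Only the intervals of Postn, Dcn and Sparc exclude 0, and the ranges of Tnc, Thbs1, Fn1 and Vcan span it.

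By the same distance, the genes above the median level whose profiles lay nearest were Rc3h2 (0.06) and Prpf39 (0.08) for Postn, and Ddr2 (0.09) and B2m (0.10) for Dcn, among 11271 protein-coding candidates over 6 arrays. For Sparc they were Zcchc2 and Enpp5, for Fn1 Mrpl9 and Trim27, for Vcan Kif6 and Rrnad1, for Thbs1 Kdelr2 and Exosc2, for Thbs2 Zfp939 and Rab36, and for Tnc Nfe2l3 and Hars2. DDR2 is a collagen receptor of fibroblasts and B2M the light chain of MHC class I.

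Relatives of the members were mostly higher or did not pass. Of 22 other matricellular and related genes, 10 rose and 1 fell, where 12.5% of all genes were called higher and 13% lower. Their median log2 fold change was 0.60, where that of all genes was 0.04. By smallest p the list was led by Fbln1, fibulin 1, at 1.29 ± 0.23, and Ecm1, an extracellular matrix protein best known from skin, at 1.53 ± 0.27. Next came Sparcl1, the SPARC-like protein hevin, at −1.29 ± 0.24, and Spock2, testican 2, at 0.88 ± 0.19 (SE; limma, adjusted p between 0.0051 and 0.012). The count depended on the controls, as did that of all genes. It was 2 higher and 1 lower without control replicate 1, where Spock2 did not pass (0.77, adjusted p = 0.057). Without control replicate 3 it was 3 higher and 1 lower, and without control replicate 4 it was 9 higher and 1 lower. Of all genes, 6292 were called with every array, 3141 without control replicate 1, 2882 without control replicate 3 and 4457 without control replicate 4. Fbln1, Ecm1 and Sparcl1 passed in all 17 refits.

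Set side by side by family, a grouping made after the values were seen, Postn stood against Tgfbi, the other gene for a secreted protein with FAS1 domains, which had 7.50, 7.46 and 7.19 in the knockout and 6.54, 6.75 and 6.83 in the control. Tgfbi was higher by 0.67 ± 0.19 (limma, adjusted p = 0.033), but lost its call in 7 refits, among them those without control replicate 1 (0.59, adjusted p = 0.13), control replicate 3 (0.69, 0.098), control replicate 4 (0.73, 0.064), knockout replicate 1 (0.61, 0.064) or knockout replicate 3 (0.63, 0.073). The membrane receptor Stab1, which also carries FAS1 domains and was listed among the receptors, was higher by 0.88 ± 0.25 (adjusted p = 0.029), a call lost without knockout replicate 4 or any 1 control array. Of the SPARC family, Sparcl1 had 8.33, 8.40 and 7.71 in the knockout, against 9.38, 9.64 and 9.28 in the control, while Spock2 and Smoc2 (1.19 ± 0.31, adjusted p = 0.023) were called higher and the other 3 relatives of Sparc did not pass. Smoc2 lost its call in 5 refits, those without knockout replicate 1 or 3 and control replicate 1 or 3 among them. Of the thrombospondins, Comp, best known from cartilage, was called higher (0.83 ± 0.25, adjusted p = 0.042) and Thbs3 and Thbs4 did not pass. Of the tenascins, Tnxb was called higher (1.05 ± 0.26, adjusted p = 0.018) and Tnn and Tnr did not pass. Comp did not pass without control replicate 1 (0.89, adjusted p = 0.096), control replicate 3 (0.79, 0.14), control replicate 4 (0.80, 0.11) or knockout replicate 4 (0.56, 0.081). Its control levels, 2.09, 1.89 and 1.91, lay near the arrays' lower quartile of 2.02. Tnxb did not pass without control replicate 1 (1.05, adjusted p = 0.068) or control replicate 3 (0.97, 0.081). Of 6 CCN genes 3 were higher and 0 lower, Ccn5 (1.04), Ccn1 (0.86) and Ccn2 (0.76). Over all genes 12.5% were called higher and 13% lower. Each of these 3 CCN calls was lost without control replicate 1, without control replicate 3 or with Xist as a covariate. Those of Ccn1 and Ccn2 were also lost with the trend in gene length removed, and that of Ccn1 without knockout replicate 4. No difference between a member's change and a relative's was tested.

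**Figure D3:**
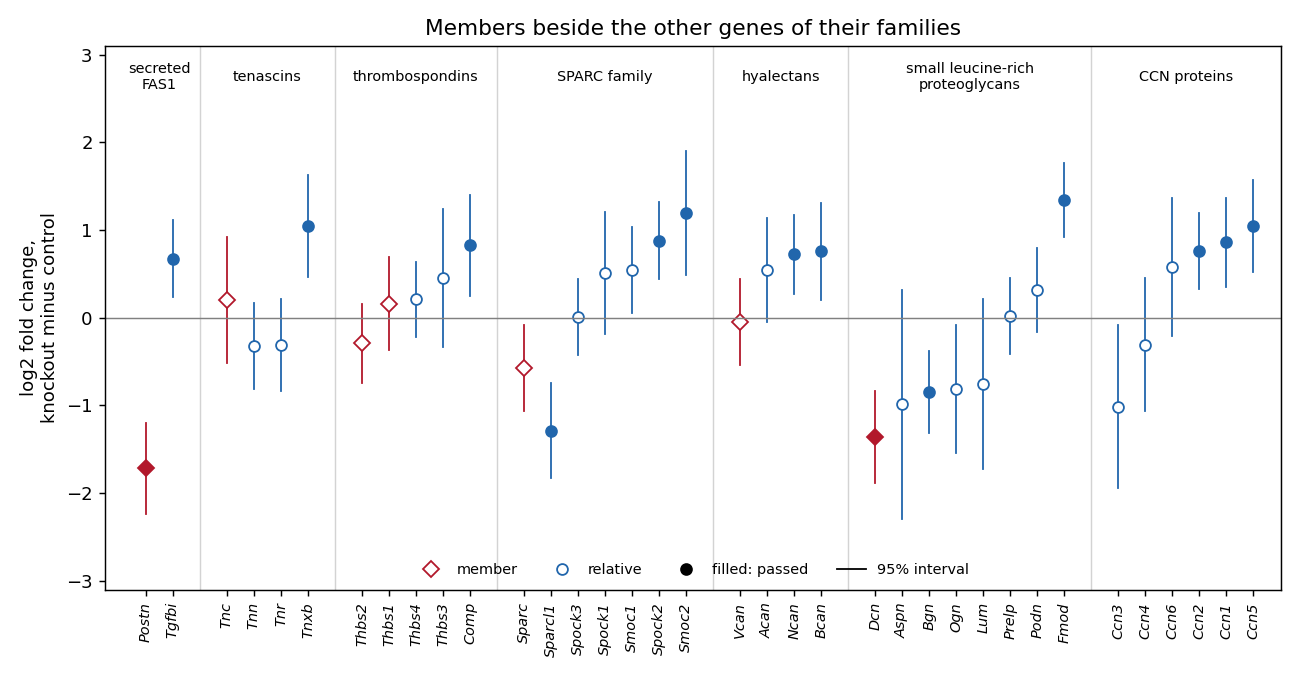
Log2 fold change, knockout minus control, of the members (red diamonds) and the other genes of their families (blue circles), with 95% intervals and filled symbols for genes past the threshold. Postn lies at −1.72 beside Tgfbi at 0.67, and Dcn at −1.36 beside relatives that run from Aspn at −0.99 to Fmod at 1.35.

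Beside Vcan and Dcn, 15 other proteoglycan and hyaluronan genes were measured, of which 3 rose and 1 fell. Their median was 0.09. Of all genes 12.5% were called higher and 13% lower. Fmod, fibromodulin, which like decorin binds collagen fibrils, had 5.66, 5.38 and 5.61 in the knockout, against 4.08, 4.23 and 4.30 in the control. It was higher by 1.35 ± 0.19 (limma, adjusted p = 0.0026) and passed in every refit. Bgn, biglycan, the closest relative of decorin, had 10.54, 10.66 and 10.80 in the knockout, against 11.25, 11.79 and 11.49 in the control, and was lower by −0.84 ± 0.21 on the log2 scale (limma, adjusted p = 0.018). It did not pass without control replicate 3 (−0.70, adjusted p = 0.086) or control replicate 4 (−0.86, adjusted p = 0.054). The brain-type hyalectans Ncan (0.72 ± 0.20, adjusted p = 0.028) and Bcan (0.76 ± 0.24, adjusted p = 0.0497) were called higher, and Ncan lost its call without any 1 of 5 arrays (adjusted p of 0.0555 to 0.107), as did Bcan (0.0858 to 0.154), namely of all but knockout replicate 3. Their control levels lay near the arrays' lower quartile of 2.02, at 2.44, 2.32 and 2.44 for Ncan and 2.03, 2.23 and 2.16 for Bcan. Without knockout replicate 4 the list held 1 higher and 4 lower genes, and without control replicate 3 or control replicate 4 it held 1 higher and 0 lower. Of all genes, 6292 were called with every array, 5686 without knockout replicate 4, 2882 without control replicate 3 and 4457 without control replicate 4.

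Receptors of these proteins changed in both directions, at 13 of 19, against 25.5% of all genes called in either direction. Of the 13 receptors 5 rose and 8 fell, where 12.5% of all genes were called higher and 13% lower. The median of the list was −0.18. Sdc1, the heparan sulphate proteoglycan syndecan 1, had 6.77, 6.61 and 6.63 in the knockout, against 4.88, 5.06 and 5.31 in the control, a rise of 1.59 ± 0.19 (limma, adjusted p = 0.0020). Lrp1, a scavenger receptor that takes up thrombospondin 1, rose by 1.34 ± 0.25 (adjusted p = 0.0062). Itgb1, the integrin chain shared by most fibronectin receptors, had 7.29, 7.20 and 6.57 in the knockout, against 8.58, 8.47 and 8.15 in the control, with a log2 fold change of −1.38 ± 0.25 (adjusted p = 0.0053). Itgb6, the epithelial integrin chain that binds fibronectin and latent TGF-beta, stood at −1.49 ± 0.26 (adjusted p = 0.0046). Of 10 integrin chains 5 were lower and 1 higher, and of 4 syndecans 2 were higher and 0 lower. Sdc1, Lrp1, Itgb1 and Itgb6 passed in all 17 refits. So did Cd47, named after its value was seen, which was lower at −1.34 ± 0.27 (limma, adjusted p = 0.0079). Without control replicate 1 the list held 2 higher and 3 lower genes, and likewise without control replicate 3. Of all genes, 3141 were called without control replicate 1 and 2882 without control replicate 3, against 6292 with every array. Without knockout replicate 4 it held 2 higher and 7 lower. With the trend in gene length removed it held 7 higher and 4 lower. The lower calls of Cd44, Itga4, Itga8 and Itgav, named after their values were seen, were lost there.

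A list of 14 genes held enzymes that cut or crosslink these proteins and the metalloproteinase inhibitor Timp1. Of these 14 genes 4 rose, 2 fell and 8 did not pass, where 12.5% of all genes were called higher and 13% lower. The median of the list was 0.28. Timp1, named after its value was seen, was among the 4 that rose, at 0.68 ± 0.21 (limma, adjusted p = 0.046). It lost its call in 11 of 17 refits. Tgm2, the transglutaminase that crosslinks fibronectin, was higher by 1.12 ± 0.20 (limma, adjusted p = 0.0055) and passed in all refits. Of 5 ADAMTS proteases that cleave versican or related proteoglycans, 1 rose, 2 fell and 2 did not pass. Adamts15 stood at 1.11 ± 0.22 (adjusted p = 0.0083), Adamts9 at −1.09 ± 0.26 (adjusted p = 0.016) and Adamts5 at −0.86 ± 0.24 (adjusted p = 0.030), with Adamts1 at −0.14 and Adamts4 at 0.06 (Adamts5, Adamts1 and Adamts4 named after their values were seen). Adamts5 lost its call without knockout replicate 4 (−0.63, adjusted p = 0.061) or any 1 control array (adjusted p of 0.0536 to 0.12). Adamts9 lost its call without control replicate 1 (−1.08, adjusted p = 0.063) or control replicate 3 (−1.03, 0.0705). Adamts5 and Adamts9 also lost their calls with Xist as a covariate and with the trend in gene length removed. Adamts15 missed the threshold with Xist as a covariate (1.00, adjusted p = 0.0505). The gelatinase Mmp2, at 0.85 ± 0.19 (adjusted p = 0.012), lost its call without control replicate 1 (0.82, adjusted p = 0.054) and with Xist as a covariate. The list gave 2 higher and 0 lower genes without control replicate 1, and 3 higher and 0 lower without control replicate 3. In these refits 3141 and 2882 of all genes were called, against 6292 with every array.

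TGF-beta, which induces Postn, Fn1 and Tnc in many cell types and is bound by decorin, had its own list of 14 measured genes. Of these 4 rose, 1 fell and 9 did not pass, and the median was −0.07. The shares of all genes called were 12.5% higher and 13% lower. Tgfb1 had 7.48, 7.34 and 7.52 in the knockout, against 5.78, 5.78 and 6.04 in the control, a rise of 1.58 ± 0.19 (limma, adjusted p = 0.0019). The latent TGF-beta binding proteins Ltbp4, Ltbp2 and Ltbp3 were higher by 1.57 ± 0.24, 1.34 ± 0.23 and 1.26 ± 0.27 (adjusted p of 0.0032, 0.0049 and 0.011). Ltbp3 lost its call without control replicate 1 (1.24, adjusted p = 0.051) or control replicate 3 (1.25, adjusted p = 0.051). The 1 lower gene, named after its value was seen, was the receptor Tgfbr1, at −1.05 ± 0.29 (adjusted p = 0.028), a call lost when any array but knockout replicate 3 was left out. Without knockout replicate 3 the list held 4 higher and 4 lower genes.

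**Figure D4:**
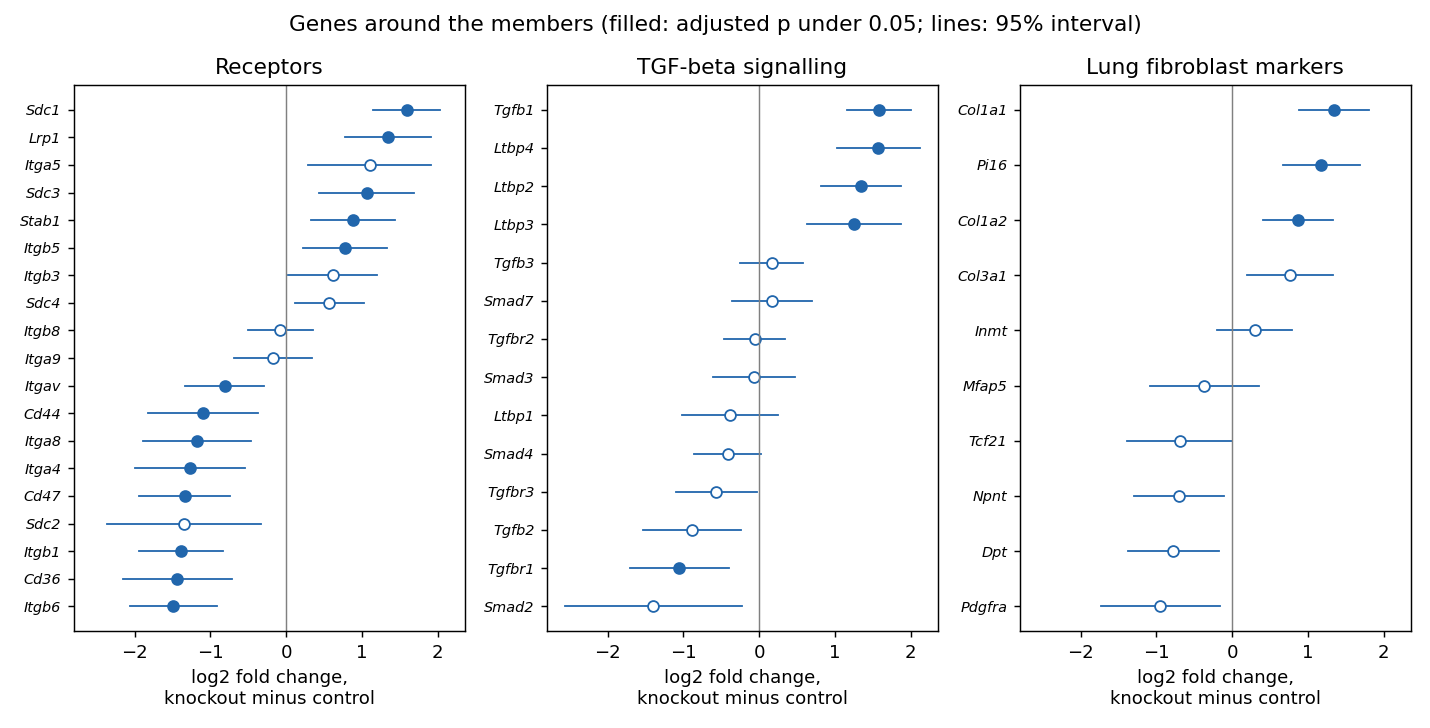
Log2 fold change, knockout minus control, with 95% intervals, for receptors of the members, genes of TGF-beta signalling and markers of lung fibroblasts, with filled points for genes past the threshold. Receptors lie on both sides of 0, from Itgb6 at −1.49 to Sdc1 at 1.59, and the fibroblast markers from Pdgfra at −0.95 to Col1a1 at 1.34.

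Markers of cells that can make these transcripts moved unevenly beside Postn and Dcn. Counts of called markers are to be read against 12.5% of all genes called higher and 13% called lower. Of 10 lung fibroblast markers 3 were higher and 0 lower, Col1a1 by 1.34 ± 0.21, Pi16 by 1.18 ± 0.22 and Col1a2 by 0.87 ± 0.20 (limma, adjusted p of 0.0032, 0.0068 and 0.015). Col1a2 lost its call without control replicate 1 (0.89, adjusted p = 0.055) or control replicate 3 (0.82, 0.069). The other 7 did not pass, in either direction, and are named after their values were seen. They were Col3a1 at 0.76 ± 0.25 and Inmt at 0.30 ± 0.22, and, below 0, Pdgfra at −0.95 ± 0.35, Dpt at −0.78 ± 0.27, Npnt at −0.70 ± 0.26, Tcf21 at −0.69 ± 0.31 and Mfap5 at −0.37 ± 0.32. Col3a1 (adjusted p = 0.053) passed in 6 refits, the 1 without knockout replicate 4 among them. The summed level of the list, as log2 of the sum of linear values, was 10.70 to 10.82 in the knockout and 10.70 to 10.79 in the control. Such a sum is weighted toward the brightest genes of a list, and opposite changes can cancel in it. It does not measure how many cells of a type were present. Without knockout replicate 3 the list gave 3 higher and 2 lower genes, and without knockout replicate 4 it gave 4 higher and 1 lower. No fibroblast marker lay below the lower quartile on all arrays, and the list's part in the changes of Postn and Dcn was not tested.

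The other marker lists are given by the same count and summed level, with the same limits. Their counts, too, stand beside 12.5% of all genes called higher and 13% called lower. In smooth muscle 1 of 8 markers rose and 0 fell, with a summed level of 9.23 to 9.49 in the knockout and 8.68 to 9.27 in the control. In mesothelium it was 1 of 5, Msln, and 0 fell (8.18 to 8.43 in the knockout, 7.67 to 7.98 in the control). Alveolar macrophage genes fell at 1 of 7, the mannose receptor Mrc1, and 0 rose (7.07 to 8.17 in the knockout, 8.42 to 8.86 in the control). For monocytes 2 of 5 fell and 0 rose (6.12 to 7.08 in the knockout, 7.07 to 7.29 in the control), and for platelets 1 of 5 fell and 0 rose (5.34 to 6.15 in the knockout, 5.53 to 6.10 in the control). Among 11 pan-endothelial genes 5 rose and 5 fell (11.20 to 11.25 in the knockout, 11.64 to 11.94 in the control). Airway cartilage genes, which Comp belongs to, rose at 4 of 7 and 0 fell (6.69 to 7.31 in the knockout, 5.89 to 6.03 in the control), with Matn1 below the lower quartile on all arrays. Immediate early genes rose at 3 of 11 and 0 fell (9.47 to 9.73 in the knockout, 8.91 to 9.36 in the control). Of 8 thymus genes 1 rose and 1 fell (5.63 to 5.93 in the knockout, 5.48 to 5.98 in the control).

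These counts also moved with the arrays left out. So did the count of all genes called, which was 6292 with every array. That count was 3141 without control replicate 1, 2882 without control replicate 3 and 4457 without control replicate 4. Without control replicate 3, 0 smooth muscle, monocyte, platelet, cartilage and thymus genes were called, 1 immediate early gene rose, and 2 endothelial genes rose and 3 fell. Without control replicate 1, 0 monocyte and thymus genes were called, 2 mesothelial genes and 1 cartilage gene rose, and 2 endothelial genes rose and 4 fell. Without control replicate 4, 0 monocyte and platelet genes were called, 2 smooth muscle, 2 mesothelial and 2 cartilage genes rose, and 2 thymus genes fell. Without any 1 knockout array 1 monocyte gene fell. Without knockout replicate 1, 0 platelet genes were called, without knockout replicate 3, 2 mesothelial genes rose, and without knockout replicate 4, 3 alveolar macrophage genes fell. Alveolar type 2 markers, which define lung tissue, summed to 12.48 to 13.15 in the knockout and 13.25 to 13.40 in the control, with 2 of 7 lower and 0 higher, and with 1 lower without knockout replicate 1 or any 1 control array. Those of type 1 cells summed to 10.96 to 11.35 in the knockout and 10.59 to 11.01 in the control, with 1 of 6 higher and 2 lower, and with 1 lower without any 1 control array. The part of these lists in the members' values was not tested.

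The arrays also differed in Xist, which is high in female cells: it stood at 2.23, 2.28 and 2.03 in the knockout, against 8.22, 2.36 and 2.37 in the control. With Xist as a covariate Postn passed at −1.58 (limma, adjusted p = 0.022) and Dcn at −1.27 (adjusted p = 0.033), so both calls held with control replicate 1 set apart in this way. With the trend of each array in gene length removed, Postn stood at −1.59 (adjusted p = 0.0034) and Dcn at −1.17 (adjusted p = 0.0086), while the longer genes Tnc, Fn1 and Vcan stood at 0.58, 0.50 and 0.33 and did not pass. These 3 genes span 87.2, 67.8 and 87.7 kb, against 31.8 kb for Postn and 38.7 kb for Dcn.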

How the data were processed

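The authors deposited log2 expression per probe set, made with RMA per the submitters' processing notes; its version, the probe set definition and a genome build were not given in the sources used here. Platform annotation named 1 gene for 24705 of 25428 probe sets, several for 0 and none for 723; the brighter probe set was kept where 2 shared a symbol, which left 24704 genes. Entrez identifiers matched RefSeq (GRCm38.p6) for 24672 genes, used for gene type and length. Knockout and control arrays were compared with limma 3.58.1 in R 4.3.3 (lmFit, eBayes) over all genes, with no filter on dim genes. The fit was tested on simulated data. The number of arrays limits the precision, and an exact permutation test of 3 against 3 cannot go below a two-sided p of 0.1, so none was used.

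The members and gene lists were chosen with earlier results of these data known. Genes named were the members, Nfat5, the 4 of smallest p in each list of related genes, up to 3 called markers per cell type and the 2 nearest profiles per member; others are marked as named after their values were seen. Of the 17 refits, some changed the filter, probe set averaging, scaling, spread model, gene set, replicate block, Xist covariate or length trend (lowess, span 0.3). The others left out an array, and 2 other thresholds were also tried. For genes outside the members, the losses of calls given are mainly those with an array left out. Other refits lost some of these calls as well. Averaging and scaling could change little, since only 1 symbol had 2 probe sets and the arrays already had common quantiles.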

Additional observations from a re-analysis of the deposited data

How the results depend on the processing

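Postn and Dcn kept their direction and their call in all 17 refits and at both stricter thresholds, so the count of members called was 2 throughout, except without knockout replicate 3, where Sparc made it 3; over the arrays left out in turn it ran from 2 to 3. The median log2 fold change of the members ran from −0.28 to −0.11 over the same left-out arrays, against −0.17 with all arrays. It was −0.05 with genes under the median level left out, which drops Thbs2, and −0.07 with the length trend removed. The count of all genes called, 6292, was 2827 with Xist as a covariate, 2560 at an adjusted p of 0.01 and 3810 with a change over 2-fold, and it ran from 2882 to 6155 with 1 array left out. With the replicate block, where the arrays share only a number, 6082 genes and 2 members were called, and the deviations of same-numbered arrays from their group means correlated at 0.062, −0.013 and 0.004, with 1 of 3 knockout arrays closest to the control of its own number. Signs turned only among values that did not pass: Tnc at −0.0058 without control replicate 4 (up to 0.53 over the arrays left out), Thbs1 at −0.0052 with the Xist covariate and −0.0062 without knockout replicate 3 (up to 0.26), Fn1 at −0.057 without knockout replicate 1 (up to 0.33), and Vcan at 0.33 with the length trend removed, 0.081 without knockout replicate 4 and 0.066 without control replicate 3 (down to −0.17). The cause was not tested. Thbs2 has no value with genes under the median level left out. Signal over background is unknown here.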
